A study of Mus musculus with 3 samples.

Results

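The genes of the interferon regulatory factors Irf1, Irf2, Irf3, Irf4, Irf5, Irf7, Irf8 and Irf9, 8 of the 21887 protein-coding genes in the mouse gene table used, were examined for EZH2 occupancy in macrophages. They were chosen by name, and each was searched together with 10 kb on either side on mm10. Regions bound by EZH2 had been mapped by ChIP-seq, in which DNA is pulled down with an antibody and sequenced, in macrophages grown with M-CSF from the marrow of adult C57BL/6 mice, and the labels name no genetic change. One library came from untreated cells (NT), 1 from cells given lipopolysaccharide (LPS) for 2 h, and an input DNA library had no intervals used here. There was thus 1 library per condition, and no difference between NT and LPS below has a replicate check or a test. The files hold regions of EZH2 and no RNA, so the labelled cell type could not be checked against marker genes. The track assigned to LPS carries TLR in its name, after the receptor family that senses LPS, and every LPS value rests on that assignment.

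Interferon regulatory factors are transcription factors that share a DNA-binding domain at the amino terminus and recognise the interferon-stimulated response element (ISRE). Irf3 and Irf7 proteins wait in the cytoplasm until kinases downstream of innate sensors phosphorylate them, after which they switch on type I interferon genes. Irf9 is the DNA-binding part of the complex that answers type I interferon, Irf1 is itself induced by interferon, and Irf2 competes with Irf1 for the same sites. Irf5 acts downstream of Toll-like receptors, while Irf4 and Irf8 pair with partners such as PU.1 in blood cells. EZH2 is the catalytic subunit of polycomb repressive complex 2, which methylates lysine 27 of histone H3 and is often found at CpG-rich gene starts.

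The promoters of 5 of the genes are shown as examples of an interval over the start, beside it, or absent. Each run holds the 250 bases before the first annotated start, 5′ to 3′ on the plus strand, from RefSeq on GRCm38.p6 (mm10), with every CpG dinucleotide in capitals. Irf1 (chr11:53769764-53770013) and Irf8 (chr8:120736108-120736357) had an interval over the start in both libraries, and Irf2 (chr8:46739495-46739744) had intervals on each side of it. Irf4 (chr13:30748983-30749232) had one over its start in NT alone, and Irf9 (chr14:55603735-55603984) had none.
Irf1: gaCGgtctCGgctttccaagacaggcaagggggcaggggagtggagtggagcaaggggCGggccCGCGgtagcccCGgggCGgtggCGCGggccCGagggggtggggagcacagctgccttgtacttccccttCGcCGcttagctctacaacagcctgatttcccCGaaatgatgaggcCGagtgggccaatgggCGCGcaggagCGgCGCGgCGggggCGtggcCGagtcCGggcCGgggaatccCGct
Irf8: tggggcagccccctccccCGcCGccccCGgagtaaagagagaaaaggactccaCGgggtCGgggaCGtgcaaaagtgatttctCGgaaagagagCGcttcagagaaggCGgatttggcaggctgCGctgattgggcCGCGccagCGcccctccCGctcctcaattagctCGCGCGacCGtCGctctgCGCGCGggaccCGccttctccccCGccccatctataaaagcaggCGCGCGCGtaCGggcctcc
Irf2: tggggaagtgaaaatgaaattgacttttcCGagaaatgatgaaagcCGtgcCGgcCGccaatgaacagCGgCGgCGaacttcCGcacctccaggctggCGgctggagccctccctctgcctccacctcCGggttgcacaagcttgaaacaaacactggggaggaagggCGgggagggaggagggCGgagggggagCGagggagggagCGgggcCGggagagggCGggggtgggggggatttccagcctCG
Irf4: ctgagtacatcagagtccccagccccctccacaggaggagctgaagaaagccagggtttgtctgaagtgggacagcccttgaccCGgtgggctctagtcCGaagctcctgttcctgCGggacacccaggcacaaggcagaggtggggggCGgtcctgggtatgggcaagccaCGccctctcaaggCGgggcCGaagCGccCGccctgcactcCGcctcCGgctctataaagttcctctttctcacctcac
Irf9: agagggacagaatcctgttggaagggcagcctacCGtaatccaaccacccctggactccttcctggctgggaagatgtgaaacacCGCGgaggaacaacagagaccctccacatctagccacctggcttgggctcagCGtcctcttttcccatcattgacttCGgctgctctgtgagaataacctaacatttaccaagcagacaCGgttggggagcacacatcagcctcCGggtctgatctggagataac
These runs held 25 CpG in Irf1 and 29 in Irf8. They held 17 in Irf2, 11 in Irf4 and 7 in Irf9.

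The intervals were deposited per library, each with a summit and a whole-number score at the summit, called the summit value here. Its unit and any scaling between libraries are not given in the sources used here, and read depth is unknown. The NT library had 9643 intervals with summit values from 11 to 253 (median 27), and the LPS library had 4651 with values from 7 to 100 (median 16). A lower summit value in LPS, or a missing LPS interval, can therefore not be read as less EZH2.

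The question was whether these genes carry EZH2 before and after LPS. Of the 8 genes, 5 had an NT interval in their window, against 46.0% of all protein-coding genes. An LPS interval was present at 4 of the 8, against 21.2%. Both libraries had one at Irf1, Irf2, Irf5 and Irf8, against 20.6% of all genes. Irf4 had one in NT alone, as did 25.4% of all genes. No member had one in LPS alone, which was the case for 0.635% of all genes. Irf3, Irf7 and Irf9 had none in either library, as had 53.3% of all genes. The 5 genes with an NT interval make up 62.5% of the 8. Each gene makes up 12.5%, so the counts are coarse. With intervals at or above the median value of their own list, NT kept 3 members, beside 26.9% of all genes, and LPS kept 0, beside 12.8%.

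**Figure D1:**
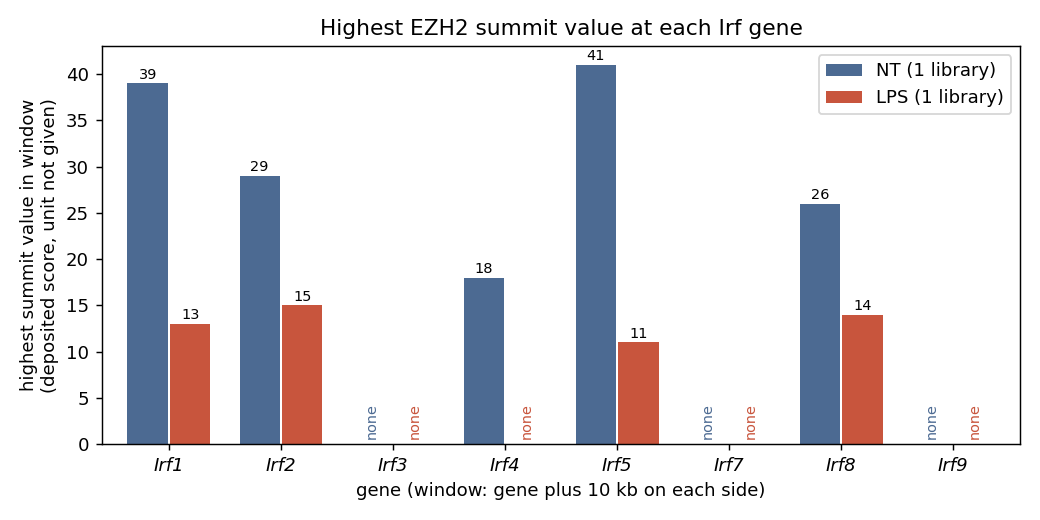
Bars give the highest summit value (deposited score, unit not given) in the window of each gene, for the NT and the LPS library; "none" marks a library with no interval in the window. The 4 genes with both libraries range from 26 to 41 in NT and from 11 to 15 in LPS.

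Irf1, the interferon-induced activator, lies on chromosome 11 from 53770014 to 53778374. At its start an NT interval ran from 53769515 to 53770834 and reached a summit value of 39. The LPS interval from 53769627 to 53771172 had 13. Both covered the annotated start, with the summit 179 bp after it in NT and 67 bp after it in LPS. The LPS interval reached 338 bp farther into the gene than the NT interval. A second NT interval, from 53763035 to 53764251 with a value of 21, lay upstream, with its summit 6141 bp before the start. It spanned the microRNA gene Mir7671 and met no LPS interval. Of the 2916 NT intervals with a value within 3 of that one, 21.9% met an LPS interval.

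Irf2, the gene of the factor that competes with Irf1, is long (chromosome 8, 46739745 to 46847458), and its intervals ended no farther than 2189 bp after the start. The NT interval with the highest value ran from 46740290 to 46741934 with 29, and the LPS interval inside it, from 46740716 to 46741704, had 15. Their summits stood 1376 bp and 1440 bp after the start. A short NT interval of 592 bp, from 46739124 to 46739715 with a value of 18, ended 30 bp before the start. It reached into the non-coding gene Gm16675 and met no LPS interval. Of the 2519 NT intervals of like value, by the limit used for Irf1, 18.5% met an LPS interval. Of the 720 that were also of like width, by the limit given below for Irf4, 9.31% did. Most NT intervals like this short one thus had no LPS partner either. The annotated start thus fell between a pair of NT intervals and was covered by neither, and the rest of the gene body had no interval in either library.

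Irf8, a factor of monocyte and dendritic cell development, lies on chromosome 8 from 120736358 to 120756694. An NT interval spanned 120735595 to 120737065 and reached a value of 26, with the summit 27 bp after the first annotated start. The LPS interval from 120735745 to 120736876 had 14, with the summit 219 bp after it. It lay wholly within the NT interval and covered the start too.

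Irf5, which acts downstream of Toll-like receptors, lies on chromosome 6 from 29526130 to 29541869. Its NT interval from 29525994 to 29527667 had the highest NT value of the family genes examined, 41. Its LPS interval from 29526726 to 29527928 had the lowest LPS value among them, 11. The summits stood 256 bp and 288 bp after the start given in the promoter table (29526625). The LPS interval began 101 bp after that start and so did not cover it, began 732 bp later than the NT interval, and reached 261 bp beyond it into the gene.

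Irf4, a factor of lymphocytes and of alternatively activated macrophages, lies on chromosome 13 from 30749233 to 30766981. Its NT interval, from 30748848 to 30751155, was the widest at these genes (2308 bp) and had a summit value of 18, with the summit 784 bp after the start. No LPS interval lay in its window, and the nearest was 206560 bp away, with a value of 14. Of the 2519 NT intervals with a value within 3 of that at Irf4, 18.5% met an LPS interval. Of the 81 that also had a width within 300 bp, 45.7% did. Most NT intervals like that of Irf4 thus had no LPS partner, by value alone or by value and width.

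Irf3 (chromosome 7, 44997648 to 45002848), Irf7 (chromosome 7, 141263183 to 141266499) and Irf9 (chromosome 14, 55603985 to 55610030) had no interval. Irf3 and Irf7 are among the factors activated by phosphorylation on sensing, and Irf9 acts after interferon has bound its receptor. The nearest NT interval to Irf3 was 50624 bp away (summit value 31), and the nearest LPS interval 67411 bp away (11). Since no list gives values below its lowest entry, no interval means only that none was listed.

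**Figure D2:**
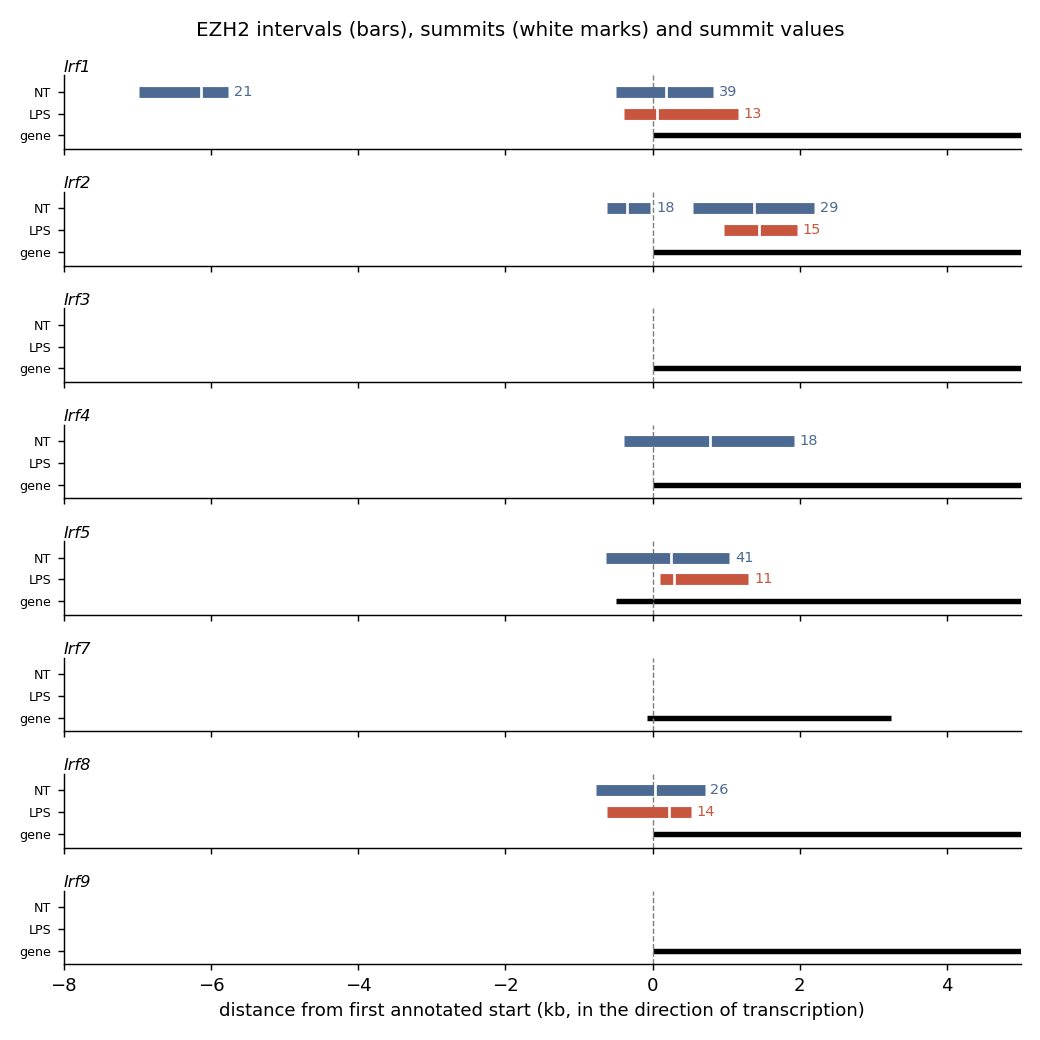
Each panel shows 1 gene, with NT and LPS intervals as bars, summits as white marks and the summit value beside each bar, by distance in kb from the first annotated start (dashed line). The gene (black) is drawn up to 5 kb after the start, and no interval of these windows lies outside the range shown; all but 1 of the intervals lie within 2.5 kb of the start.

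The 7 NT and 4 LPS intervals of the family had no other protein-coding gene under them. All but the upstream one at Irf1 lay within 2.5 kb of a start, and none lay at a 3′ end. Neither these places nor the lack of other protein-coding genes was counted over all listed intervals. Whether they are particular to the family is thus not known. Widths of the family's intervals ran from 592 to 2308 bp in NT and from 989 to 1546 bp in LPS, beside medians of 1305 and 1472 bp in the whole lists. No wide domain of the kind polycomb forms over clusters of developmental genes was listed at these genes. Of all 4375 LPS intervals with an NT partner, 55.7% lay within the NT interval, as at Irf2 and Irf8, and 10.9% reached past it by 250 bp or more, as at Irf1 and Irf5.

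An NT interval covered the first annotated start of 4 of the 8 genes (Irf1, Irf4, Irf5 and Irf8), against 31.6% of the 17492 protein-coding genes in the promoter table. An LPS interval covered it at 2 (Irf1 and Irf8), against 11.3%. Summits were mostly listed at steps of 16 bp (96.6% of NT and 93.3% of LPS summits), so summit distances are no finer than that. At Irf2 and Irf5 the summits of the libraries lay 64 and 32 bp apart, which is a few such steps. They lay 112 bp apart at Irf1 and 192 bp apart at Irf8.

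Irf5 and Irf1 had the lowest LPS values relative to NT, and Irf2 and Irf8 the highest. The ratio of LPS to NT was 0.268 at Irf5 and 0.333 at Irf1. It was 0.517 at Irf2 and 0.538 at Irf8. The median of the 4 was 0.425, beside 0.488 over the 4511 protein-coding genes with both, whose central 95% ran from 0.273 to 0.789. Irf5 thus lay just below that central range, and the other 3 lay inside it. With 25 kb on each side, chosen after the data were seen, the highest values of Irf5 came from another interval (55 in NT and 25 in LPS, ratio 0.455), and the median of 6 members was 0.500 beside 0.486. Of all those genes, 2.33% had a ratio at or below that of Irf5 and 10.4% at or below that of Irf1. The corresponding shares were 59.2% for Irf2 and 65.9% for Irf8.

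Compared with genes of a like NT value (within 5), Irf5 and Irf1 again had the lowest shares. A ratio as low as that of Irf5 was found at 41 of 904 such genes (4.54%), and as low as that of Irf1 at 173 of 989 (17.5%). For Irf2 it was 804 of 1365 (58.9%) and for Irf8 717 of 1228 (58.4%). With 1 library per condition the error of each ratio is not known, and whether Irf5 and Irf1 differ from Irf2 and Irf8 was not tested.

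The same values can be placed within the list of their own library, and the places in lists of different length are not compared. In NT, 82.0% of all intervals had a value at or below that at Irf5, 79.8% at or below that at Irf1, 60.5% at or below that at Irf2 and 49.9% at or below that at Irf8. In LPS these shares were 19.5% for Irf5, 34.3% for Irf1, 46.0% for Irf2 and 40.3% for Irf8. All 4 LPS values lay below the LPS median of 16.

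**Figure D3:**
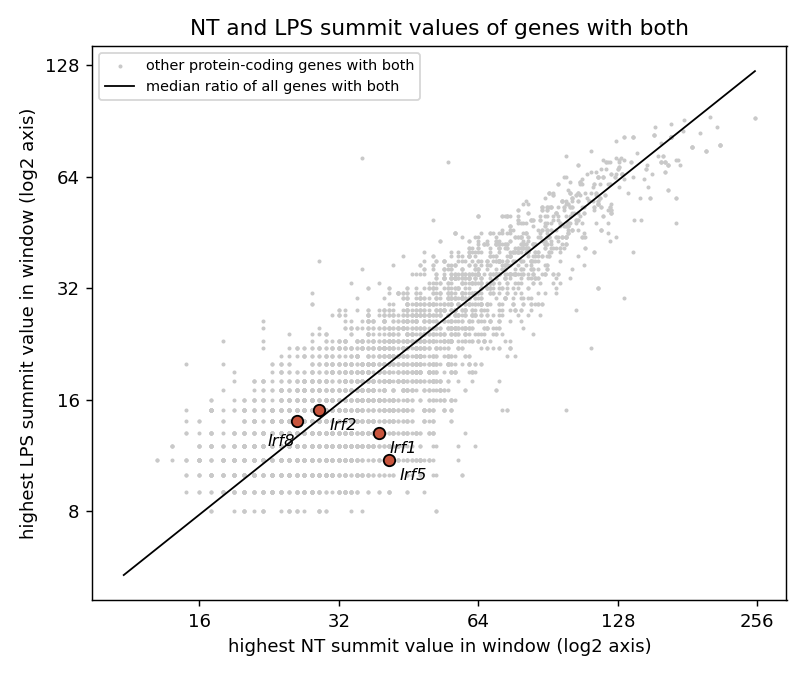
Each point is a protein-coding gene with an interval of both libraries in its window, by its highest NT and highest LPS summit value (both axes log2), and the line is the median ratio of 0.488. Irf2 and Irf8 lie close to the line, and Irf1 and Irf5 lie below it.

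The CpG content of the start, which the choice of genes did not use, was described for all promoters of 300 bases (250 before and 50 after the first annotated start). Irf8 held 38 CpG, Irf5 35 and Irf1 32, and 94.5%, 92.3% and 89.3% of all genes held as many or fewer. Irf2 held 19, Irf3 18, Irf4 11, Irf9 9 and Irf7 7, beside a median of 13 over all genes. The genes with 30 or more CpG (Irf1, Irf5 and Irf8) all had an NT interval over the start, as had 60.0% of the 2615 genes of that class. Those with 9 or fewer (Irf7 and Irf9) had none, and 4.24% of the 7484 genes of that class did. Between 10 and 19 CpG, Irf4 had one and Irf2 and Irf3 had not, while 40.1% of 3699 genes did. None of the 8 genes had 20 to 29 CpG, where the start was covered in 58.3% of genes in NT and 19.5% in LPS. In LPS the shares were 21.2% at 30 or more CpG, 14.8% at 10 to 19 and 2.18% at 9 or fewer.

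**Figure D4:**
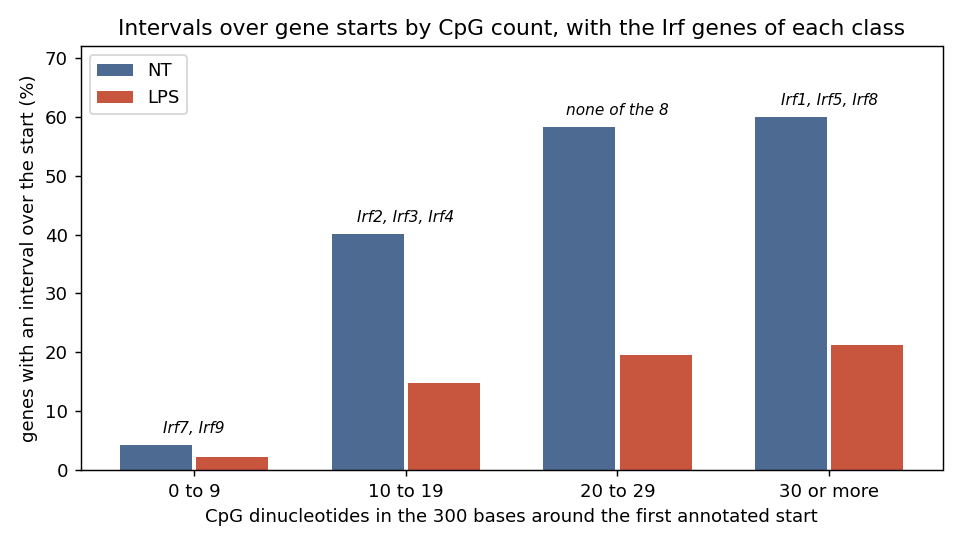
Bars give the percentage of protein-coding genes with an NT or LPS interval over the first annotated start, by the number of CpG in the 300 bases around it, and the names above the bars are the Irf genes of each class. Irf7 and Irf9 fall in the class with 4.24% in NT, and Irf1, Irf5 and Irf8 in the class with 60.0%.

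Sites for the factors that act on these genes were searched as letters in the same 300 bases, on both strands. The ISRE core, GAAA followed by any 2 bases and GAAA, was found at Irf2 alone (GAAAATGAAA, 241 to 232 bases before the start, near the beginning of the printed run), and 3.40% of 17492 promoters hold it. The gamma-activated site TTCNNNGAA was found at Irf1 (TTCCCCGAA, 90 to 82 bases before the start) and Irf2 (TTCCGAGAA). Irf8 had it at 2 places (TTCTCGGAA and TTCAGAGAA), and 7.78% of promoters hold it. The NF-kB consensus was found at Irf1 (GGGGAATCCC, 13 to 4 bases before the start) and Irf2 (GGGGATTTCC, 17 to 8 bases before it), and 4.57% of promoters hold it. No 2 of these matches overlap. The NT and LPS intervals of Irf1 and Irf8 covered their matches. At Irf2 the NT interval that ends 30 bp before the start covered the ISRE and TTCNNNGAA matches and not the NF-kB match. Irf3, Irf4, Irf5, Irf7 and Irf9 held none of the 3 in this window, which says only that these letters are not there.

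The genes that surround these factors in the pathway were counted in windows of the same kind. Their intervals were not checked for other genes under them, so a value may come from an interval at a neighbouring gene. Of 11 interferon ligand genes, which include the Irf3 and Irf7 target Ifnb1, 1 had an NT interval (Ifnk, summit value 20), beside 46.0% of all genes. An LPS interval was present at 21.2% of all genes and at none of these ligand genes. Several of them lie in 1 cluster and are not independent. Of 10 genes of the interferon receptors and JAK-STAT, 9 carried NT intervals and 2 carried LPS intervals, so that 7 had one in NT alone, beside the 46.0%, 21.2% and 25.4% of all genes. The receptor chains Ifnar1 (36) and Ifngr1 (35) had one in NT alone, while Ifnlr1, a receptor chain for type III interferon, had 63 in NT and 34 in LPS, and the kinase gene Jak1 had 24 and 13.

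Among 20 sensors and kinases upstream of the factors, NT intervals were present at 10, near the background of 46.0%, and LPS intervals at 2, beside 21.2%. Traf3, an adaptor for the kinases that phosphorylate Irf3, had 105 in NT and 58 in LPS, and Ikbke, one of those kinases, had 56 and 16. The kinase gene Chuk (30) and the DNA sensor gene Cgas (29) had NT intervals alone.

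Among 10 DNA-binding partners and cofactors, NT intervals were present at 9, beside 46.0% of all genes, and LPS intervals at 5, beside 21.2%. Irf2bpl, a relative of the Irf2-binding proteins, had 59 and 20. The acetyltransferase genes Crebbp and Ep300 had 43 and 15, and 33 and 12. Batf3, which works with Irf4 and Irf8 in dendritic cells, had 35 and 12.

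Among 22 target genes induced by LPS or interferon, NT intervals were present at 6, beside 46.0% of all genes, and LPS intervals at 11, beside 21.2%. No factor gene had an interval in LPS alone, and 7 of these targets had one in LPS alone, against 0.635% of all genes. They were the chemokine genes Cxcl10 (23) and Ccl5 (18), the antiviral genes Rsad2 (21), Ifit1 (13) and Isg20 (8), the co-stimulatory receptor gene Cd40 (13) and the guanylate-binding protein gene Gbp5 (10). That such target genes carry LPS intervals was known before the list was written, so the count is not independent evidence. Nos2 had 58 in NT and 25 in LPS, Usp18 had 25 and 12, and Isg15 had 28 in NT alone. The median ratio of LPS to NT was 0.541 over 2 receptor and JAK-STAT genes with both and 0.419 over 2 sensors and kinases. It was 0.349 over 5 partners and cofactors and 0.582 over 4 targets, beside 0.488 over all genes. Of those 4 targets, Tap1 and Psmb9 had the same values (19 in NT and 13 in LPS, ratio 0.684). They may share intervals and are not known to be independent. Nos2 and Usp18 had ratios of 0.431 and 0.480, below 0.488.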

How the data were processed

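EZH2 intervals and summits of 1 NT and 1 LPS library were taken from the authors' deposited track file of 5 tracks. Per the submitters' processing notes, BWA, SICER and the build mm10 were used, with no version or role given. The deposited score at each summit is a whole number of unknown unit. Positions were deposited as BED coordinates and are printed 1-based. Depth, scaling, use of the input and calling settings are not given in the sources used here, so no counting interval is given.

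Gene positions and promoters came from RefSeq tables (GRCm38.p6), in which all 8 genes matched. An interval counted when it met the gene plus 10 kb by 1 bp, and a gene's value was its highest. Counts and ratios were made with Python 3.11.15. Only the step that finds each gene's value was checked on simulated data, with at most 1 interval per library in a window. With 1 library per condition, no test was made. Of the target list, 2 genes are not protein-coding in the table and were left out.

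The members and lists were chosen with earlier results of these data known. Named genes were the members, up to 4 genes per pathway list with the highest values, all list genes in LPS alone, and the 3 genes most like the member with the highest NT value of those with both. CpG classes, motifs and the limits for like values and widths were chosen after the data were seen. Tap1 and Psmb9 were named after their values were seen. One other gene of the family and 1 gene of the receptor list are not reported here.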

Additional observations from a re-analysis of the deposited data

How the results depend on the processing

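No paired analysis was possible because NT and LPS had 1 library each. Of 61 recomputed values, 51 stayed within 1.5 times the reported one, including all those from windows of 5 kb, 2.5 kb and the gene alone, from summits or 50% of an interval inside the window, and from 15 kb and 25 kb windows. The last 2, and any annotated start, were chosen after the data were seen. With 15 kb and with 25 kb, Irf7 and Irf9 gained intervals of both libraries, so 7 members had an NT and 6 an LPS interval. Of all genes, 49.2% and 23.5% did at 15 kb, and 54.4% and 27.8% at 25 kb. At 25 kb the median ratio was 0.500 beside 0.486 over all genes, so it no longer lay below theirs. With intervals at or above the median of their own list (27 in NT, 16 in LPS), 3 members had an NT interval (Irf1, Irf2 and Irf5), 0 an LPS interval, 0 both and 3 NT alone, beside 26.9%, 12.8%, 12.1% and 14.8% of all genes. No ratio was left, and NT and LPS intervals covered the start of 2 and 0 members. The share of all genes with a covered start was not computed for that cut. With all intervals it was 31.6% in NT and 11.3% in LPS. With the NT list cut to the 4651 highest values, 3 members had an NT interval, 0 had NT alone and 1 LPS alone, which was Irf8, beside 26.1%, 9.54% and 4.66% of all genes. An LPS interval came within 1 kb of the start at 4 members, and the share of all genes was not computed for that limit. The settings behind these changes used fewer intervals or a wider limit, and no other source of the changes was tested. Depth is unknown, so it is not known which weak intervals it limits.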

Other observations

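Just outside the windows, Irf7 and Irf9 had intervals of both libraries at neighbouring gene starts. An interval over the start of Sct, which encodes the hormone secretin, lay 11149 bp from Irf7 in NT with a summit value of 42 and 11126 bp from it in LPS with 15. An interval over the starts of Psme2, a proteasome activator subunit gene, and Rnf31, a ubiquitin ligase gene of inflammatory signalling, lay 11179 bp from Irf9 in NT with 18 and 11824 bp from it in LPS with 9. These genes were chosen after their values were seen. With 15 kb on each side, 7 members had an NT and 6 an LPS interval, beside 49.2% and 23.5% of all genes.

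Among protein-coding genes apart from predicted ones, 4 others had exactly the highest values of Irf5 in both libraries (41 in NT and 11 in LPS), over 2 libraries. The first 3 by name were Hnrnpk and Rpl23, which encode an RNA-binding protein and a ribosomal protein, and Rmi1, whose product acts in DNA repair. The fourth was Zswim6. Whether any of these genes share an interval was not checked, so they are not known to be separate matches.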
